A study of Mus musculus with 6 samples.

Results

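MHC class I molecules display short peptides from inside the cell at its surface, and 10 genes of that pathway are described here in 2 lines of mouse keratinocytes. They are H2-T23, H2-K1 and H2-D1, which encode class I heavy chains, B2m, which encodes their light chain, the peptide transporter genes Tap1 and Tap2, the tapasin gene Tapbp, and the immunoproteasome genes Psmb8, Psmb9 and Psmb10. The members were chosen by gene symbol in the GENCODE M21 annotation, and all 10 were found among the 49315 genes counted. Earlier results of the same comparison were known when they were chosen, so the values of the members in the 2 lines are given as a description, without a test.

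The study counted RNA sequencing reads per gene in immortalized keratinocytes (MK cells), the epithelial cells of the skin. The 3A group was MK-546-ha3A (MK-/-:ha3), the α3-null cells to which human α3 integrin had been given back. The Control group was MK-546 (MK-/-), which lacks the α3 subunit of the laminin receptor α3β1. Each group had 3 libraries. All cells shared the loss of mouse α3, were kept at 33 °C in 8% CO2 on collagen in 10 cm dishes, reached 50 to 80% confluence and received no treatment. Each group was 1 cell line, so the presence of α3 and the separate history of each line cannot be told apart. The sources used here do not name the vector or promoter of the human gene, and nothing says whether the libraries of a group came from separate cultures. P-values therefore measure only the spread between these libraries, which may be technical.

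A class I molecule consists of a heavy chain, the small light chain β2-microglobulin and a peptide. The immunoproteasome, in which Psmb8, Psmb9 and Psmb10 take the places of the constitutive subunits Psmb5, Psmb6 and Psmb7, cuts proteins into peptides. The transporter formed by Tap1 and Tap2 carries them into the endoplasmic reticulum, where tapasin helps to load them. Classical heavy chains such as H2-K and H2-D present many peptides to cytotoxic T cells. The nonclassical chain Qa-1, the product of H2-T23, presents mainly a peptide from the leader sequence of other class I chains, above all H2-D, to the CD94/NKG2A receptor of natural killer cells. Interferons raise the expression of the whole pathway in keratinocytes as in most cells.

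The promoters of the 3 heavy-chain genes and of B2m are shown because the level of H2-T23 differed between the lines far more than those of the genes it works with. Each sequence runs from 250 bases before the RefSeq start site to 30 bases after it, 5′ to 3′ on the strand of the gene, in the build GRCm38.p6. Capitals mark the matches to 5 short motifs on either strand, namely GGGATTCCC (a κB element of class I promoters), AANNGAAA (the core of an interferon response element), TGACG (part of a cyclic AMP response element), CCAAT and TATAAA. No matches overlap in the windows printed. The windows are chr17:36032672-36032951 on the minus strand for H2-T23, chr17:34000318-34000597 on the minus strand for H2-K1, chr17:35262844-35263123 on the plus strand for H2-D1 and chr2:122147437-122147716 on the plus strand for B2m.
H2-T23: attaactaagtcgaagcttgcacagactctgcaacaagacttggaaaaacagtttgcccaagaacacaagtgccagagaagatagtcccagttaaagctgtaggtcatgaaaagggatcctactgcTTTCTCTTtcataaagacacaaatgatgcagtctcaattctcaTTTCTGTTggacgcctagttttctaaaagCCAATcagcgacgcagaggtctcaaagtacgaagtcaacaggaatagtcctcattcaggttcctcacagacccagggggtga
H2-K1: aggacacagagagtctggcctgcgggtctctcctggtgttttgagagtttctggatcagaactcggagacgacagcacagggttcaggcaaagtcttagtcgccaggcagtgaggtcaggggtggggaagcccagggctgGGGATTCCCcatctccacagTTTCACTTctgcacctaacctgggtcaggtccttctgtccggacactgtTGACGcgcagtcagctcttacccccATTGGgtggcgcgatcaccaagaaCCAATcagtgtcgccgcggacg
H2-D1: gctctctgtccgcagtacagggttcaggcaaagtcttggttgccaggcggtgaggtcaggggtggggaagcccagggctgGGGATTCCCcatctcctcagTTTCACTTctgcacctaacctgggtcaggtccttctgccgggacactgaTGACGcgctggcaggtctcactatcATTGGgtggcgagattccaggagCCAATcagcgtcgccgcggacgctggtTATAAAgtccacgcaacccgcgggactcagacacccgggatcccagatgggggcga
B2m: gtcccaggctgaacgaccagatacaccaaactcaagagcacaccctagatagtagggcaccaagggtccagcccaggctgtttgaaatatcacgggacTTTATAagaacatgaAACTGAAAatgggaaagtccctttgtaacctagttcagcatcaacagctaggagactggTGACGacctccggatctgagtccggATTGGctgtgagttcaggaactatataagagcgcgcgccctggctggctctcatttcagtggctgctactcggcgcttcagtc

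GGGATTCCC was found in the H2-K1 and H2-D1 windows and not in those of H2-T23 and B2m, and 0.329% of 32851 mouse promoter windows of this length hold it. AANNGAAA was found at 2 places in the H2-T23 window and at 1 place in each of the windows of H2-K1, H2-D1 and B2m, against 23.1% of all windows with a match. TGACG was present in H2-K1, H2-D1 and B2m and not in H2-T23, against 19.9% of windows. CCAAT was present in all 4, against 36.1% of windows, and TATAAA in H2-D1 and B2m, against 13.1%. TATAAA lay at base -26 from the start site in H2-D1, and at -152 on the opposite strand in B2m. On the strand of the gene, CCAAT lay at base 8 in H2-K1 and at -53 in H2-D1, so the H2-K1 window holds less of the sequence after it. A match describes the letters only, and a missing match says nothing about whether a factor binds there. Of the 10 members, 9 had a promoter entry, and Tap2 had none.

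The total counts were 34177002, 36245240 and 35242818 in 3A 1, 2 and 3, and 29685248, 30919348 and 25634204 in Control 1, 2 and 3. Levels are given as CPM, read counts scaled to library sizes that were adjusted by trimmed means (TMM), and 13704 genes passed the low-count filter. Control 1 stood apart in its group. Its correlation of log2 CPM over genes was 0.957 with Control 2 and 0.953 with Control 3, whereas Control 2 and Control 3 correlated at 0.988. With 3A 1, 2 and 3 it was 0.9458, 0.9554 and 0.9515, so Control 1 was about as close to 3A 2 and 3A 3 as to its own group. Within 3A, library 3A 1 correlated at 0.985 with 3A 2 and 0.982 with 3A 3, which correlated with each other at 0.994. Mitochondrially encoded genes took 1.59%, 1.24% and 1.31% of the counts in 3A 1, 2 and 3, against 1.17% in Control 1, 4.19% in Control 2 and 4.73% in Control 3. The 8 keratinocyte markers summed to between 6694 and 8532 CPM in 3A and between 9364 and 10695 CPM in Control. Of the 8, 3 (Krt15, Perp and Trp63) were lower in 3A, against 7.39% of all genes (edgeR quasi-likelihood test, Benjamini-Hochberg adjusted p under 0.05). Leukocytes carry much class I mRNA, and their 10 markers summed to between 1.36 and 2.26 CPM in 3A and between 2.38 and 3.82 CPM in Control, nearly all of it from Csf1r, and Itgax, Adgre1 and Nkg7 had 0 counts in all libraries. Fibroblast, melanocyte and endothelial markers, each list summed by itself, reached at most 3.40 CPM in any library of 3A and 3.36 CPM in any library of Control. Itga3, the gene of the missing subunit, had 80.4, 70.2 and 57.5 CPM in 3A and 31.9, 41.7 and 45.1 CPM in Control (edgeR quasi-likelihood test, log2 fold change 0.81, SE 0.20, Benjamini-Hochberg adjusted p = 0.0362). Reads of the human transgene may count on the mouse gene, and the deleted exons are not resolved in gene counts, so Itga3 checks neither the deletion nor the transgene.

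H2-T23, at chr17:36029773-36032855 on the minus strand, was the member with the widest gap between the lines. Its level was 14.3, 14.4 and 16.4 CPM in 3A 1, 2 and 3, against 309, 386 and 342 CPM in Control 1, 2 and 3. These values rest on 499, 540 and 588 reads in 3A and 9762, 11290 and 8062 reads in Control. The groups were far apart, and the 3 libraries of each lay close together, Control 1 included. The means were 15.0 ± 1.17 CPM in 3A and 346 ± 38.3 CPM in Control (SD, n = 3 each), a level 23.02-fold lower in 3A (log2 fold change -4.52, SE 0.17, 95% interval -4.93 to -4.12). By size of fold change H2-T23 was the 52nd lowest of 13704 genes, and among genes averaging at least 5 CPM 12 had a lower fold change. In bulk RNA, fewer cells with the transcript and less transcript per cell cannot be told apart.

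**Figure D1:**
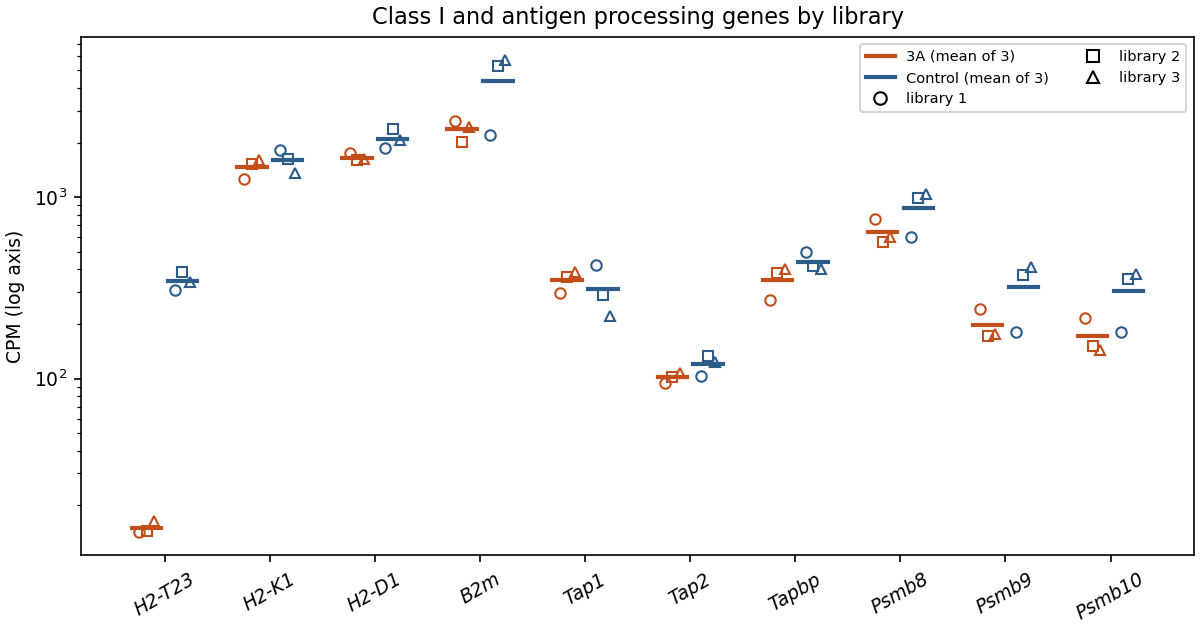
Level of each member in CPM (log axis) in each library, with 3A in orange at the left and Control in blue at the right of each pair, symbols for the library number and bars for the mean of 3. H2-T23 sits near 15.0 CPM in 3A and 346 CPM in Control, and for 7 of the other members the points of the groups overlap.

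The classical heavy chains did not show a gap of that kind. H2-K1, at chr17:33996017-34000347, had 1261, 1518 and 1603 CPM in 3A and 1815, 1616 and 1361 CPM in Control. The groups overlapped, with means of 1461 ± 178 CPM in 3A and 1598 ± 227 CPM in Control (SD, n = 3 each; log2 fold change -0.13, SE 0.18, 95% interval -0.56 to 0.30). H2-D1, at chr17:35262730-35267499, had 1747, 1595 and 1620 CPM in 3A and 1863, 2376 and 2063 CPM in Control. Every 3A library was below every Control library for H2-D1, by a small margin, with means of 1654 ± 81.9 CPM in 3A and 2101 ± 259 CPM in Control (SD, n = 3 each; log2 fold change -0.34, SE 0.17, 95% interval -0.73 to 0.04). Leader peptides of H2-D chains are the main ones that Qa-1 presents, but the alleles of this line are not named in the sources used here. The interval of the H2-D1 fold change includes 0 on the log2 scale, although the groups did not overlap.

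Set against the classical chains in the same library, H2-T23 gave the same gap. The log2 ratio of H2-T23 CPM to the geometric mean of H2-K1 and H2-D1 CPM, which is not scaled to length, was -6.70, -6.76 and -6.62 in 3A 1, 2 and 3. In Control 1, 2 and 3 it was -2.57, -2.34 and -2.29. The means were -6.69 ± 0.07 in 3A and -2.40 ± 0.15 in Control (SD, n = 3 each), a difference of -4.29 on the log2 scale. A ratio taken within a library does not change with the scaling of libraries. Against B2m, the chain that all class I molecules need, the log2 ratio of H2-T23 was -7.29 ± 0.21 in 3A and -3.55 ± 0.64 in Control.

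The make-up of the class I heavy-chain mRNA pool differed accordingly. Over 21 heavy-chain genes the summed level was 4445 ± 123 CPM in 3A and 5818 ± 423 CPM in Control (SD, n = 3 each). H2-T23 made up 0.338 ± 0.018% of it in 3A and 5.94 ± 0.31% in Control. H2-K1 made up 32.8 ± 3.23% in 3A and 27.6 ± 4.52% in Control, and H2-D1 37.3 ± 2.69% in 3A and 36.03 ± 2.16% in Control. The classical pair thus held most of the pool in both lines. H2-Q7, a Qa-2 gene, made up 12.8 ± 0.065% in 3A and 9.59 ± 0.28% in Control. These shares sum to the whole, so a smaller share of 1 gene goes with larger shares of others.

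Per length of the principal transcript, the order of the members also differed at the low end. B2m led with 2751 ± 368 CPM per kb in 3A and 5092 ± 2210 CPM per kb in Control. H2-K1 followed with 902 ± 110 CPM per kb in 3A and 987 ± 140 CPM per kb in Control, and H2-D1 with 787 ± 38.9 CPM per kb in 3A and 999 ± 123 CPM per kb in Control. The classical pair did not differ from each other beyond their spread in Control. Psmb8 stood at 395 ± 64.5 CPM per kb in 3A and 538 ± 146 CPM per kb in Control. In 3A, Psmb9, Psmb10, Tapbp and Tap1 lay within their spread of one another, between 118 and 145 CPM per kb, and Tap2 had 29.5 ± 1.90 CPM per kb. In Control, Psmb9, H2-T23 and Psmb10 lay together between 232 and 237 CPM per kb, above Tapbp at 151 ± 17.1, Tap1 at 105 ± 34.5 and Tap2 at 34.8 ± 4.39 CPM per kb. H2-T23 was the last of the 10 in 3A, at 10.2 ± 0.797 CPM per kb, and had 235 ± 26.03 CPM per kb in Control. With lengths taken over all annotated exons H2-T23 had 5.20 CPM per kb in 3A and 120 CPM per kb in Control. It was again the last in 3A, but the order in Control changed, with Psmb10 at 178, Tapbp at 121 and Psmb9 at 87.6 CPM per kb.

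B2m, at chr2:122147686-122153083, had 2637, 2018 and 2444 CPM in 3A and 2199, 5257 and 5682 CPM in Control. The groups overlapped because Control 1 lay among the 3A libraries, while Control 2 and Control 3 were higher. The means were 2366 ± 317 CPM in 3A and 4379 ± 1900 CPM in Control (SD, n = 3 each; log2 fold change -0.89, SE 0.35, 95% interval -1.72 to -0.06). Without Control 1 the log2 fold change was -1.20, and with the mitochondrial share of each library as a covariate it was 0.02. That share was high only in Control 2 and Control 3, so the fit with it compares 3A mainly with Control 1.

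In the 3 immunoproteasome genes, as in B2m, Control 1 was the low library of its group. Psmb8, the counterpart of Psmb5, had 762, 566 and 600 CPM in 3A and 602, 991 and 1034 CPM in Control (log2 fold change -0.45, SE 0.25). Psmb9, the counterpart of Psmb6, had 241, 172 and 177 CPM in 3A and 181, 370 and 410 CPM in Control (log2 fold change -0.70, SE 0.32). Psmb10, the counterpart of Psmb7 and located at chr8:105935735-105938444 outside the MHC, had 217, 151 and 144 CPM in 3A and 180, 356 and 376 CPM in Control (log2 fold change -0.83, SE 0.31). For each of the 3 genes, Control 1 lay inside the range of 3A, and Control 2 and Control 3 were above all 3A libraries. On the log2 scale Control 1 minus the mean of Control 2 and Control 3 was -1.31 for B2m, -1.11 for Psmb9, -1.02 for Psmb10 and -0.75 for Psmb8. The mitochondrial share set Control 1 apart from Control 2 and Control 3 in the same way. With it as a covariate the log2 fold changes were 0.06 for Psmb8, 0.06 for Psmb9 and -0.13 for Psmb10, values that compare 3A mainly with Control 1.

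**Figure D2:**
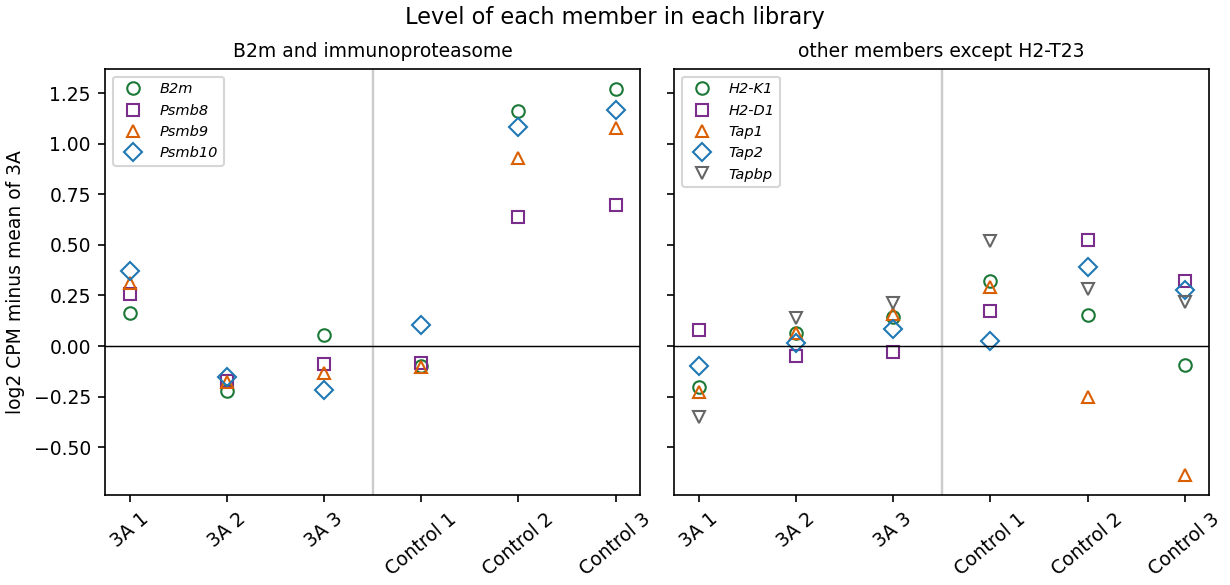
Log2 CPM of the members other than H2-T23 in each library, minus the mean of the 3A libraries, with B2m and the immunoproteasome genes in the left panel and the other members in the right panel. In the left panel Control 1 lies among the 3A libraries and Control 2 and Control 3 above them, whereas in the right panel Tap1 is highest in Control 1.

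Each immunoproteasome subunit was also set against the constitutive subunit it replaces. Per length, the log2 ratio of Psmb8 to Psmb5 was 2.05 ± 0.05 in 3A and 2.10 ± 0.12 in Control (SD, n = 3 each), and the libraries overlapped. For Psmb9 to Psmb6 it was -1.52 ± 0.06 in 3A and -1.29 ± 0.06 in Control, with every 3A library below every Control library. Psmb10 to Psmb7 gave -1.18 ± 0.23 in 3A and -0.48 ± 0.48 in Control, with overlap. The constitutive subunits had log2 fold changes of -0.41 for Psmb5, -0.46 for Psmb6 and -0.08 for Psmb7. None passed the edgeR quasi-likelihood test at an adjusted p of 0.05 (0 of 3), against 14.9% of all genes that did. Without Control 1, 2 of the 3 were lower, but so were 25.8% of all genes, and 3751 of 14300 genes were higher. Without any 1 of the other libraries, between 2.26% and 4.64% of all genes were lower, and between 346 and 640 genes were higher. These values also stand beside the counts given below for the gene lists with 1 library left out.

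The transporter and tapasin genes varied in other ways. Tap1, at chr17:34187553-34197225, had 295, 362 and 386 CPM in 3A and 422, 290 and 222 CPM in Control. The groups overlapped, and here Control 1 was the highest library and Control 3 the lowest (log2 fold change 0.16, SE 0.25). Leaving out Control 1 gave 0.45 and leaving out Control 3 gave -0.04, so Tap1 had no steady direction. The mitochondrial covariate, which leaves the comparison mainly to Control 1, gave -0.27. Tap2, the other subunit of the transporter, had 94.5, 103 and 107 CPM in 3A and 103, 133 and 123 CPM in Control, with overlap (log2 fold change -0.24, SE 0.15). Tapbp had 270, 380 and 400 CPM in 3A and 495, 420 and 402 CPM in Control. Its lowest Control library lay just above its highest 3A library (log2 fold change -0.33, SE 0.20).

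Tap1 and Psmb9 are neighbours that are read in opposite directions. Their start sites lie 226 bases apart, and their promoter windows of 300 bases overlap by 275 bases. The Tap1 window, chr17:34187306-34187585 on the plus strand, is shown because it holds the start region of both genes, whose levels did not follow each other across libraries. TGACG and CCAAT are its only matches, in capitals.
Tap1: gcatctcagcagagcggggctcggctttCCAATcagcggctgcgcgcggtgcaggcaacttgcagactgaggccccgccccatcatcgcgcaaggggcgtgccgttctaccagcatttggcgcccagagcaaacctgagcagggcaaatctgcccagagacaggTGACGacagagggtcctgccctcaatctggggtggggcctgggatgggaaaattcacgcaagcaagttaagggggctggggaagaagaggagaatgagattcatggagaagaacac

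The log2 ratio of Tap1 to Psmb9 CPM, not scaled to length, was 0.29, 1.08 and 1.12 in 3A 1, 2 and 3, against 1.22, -0.35 and -0.89 in Control 1, 2 and 3. Within Control the pair thus ran in opposite directions, with Control 1 highest for Tap1 and lowest for Psmb9. The transcripts of the pair share exon sequence, since 12.5% of the 50-base words of Psmb9 occur in Tap1, and without strand information such reads cannot be divided.

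All 10 members passed the low-count filter, and the lowest value of any was 14.3 CPM. In the edgeR quasi-likelihood fit over all 13704 genes, 7.39% were lower in 3A and 7.52% higher at an adjusted p under 0.05, 14.9% in all. H2-T23 was the 1 member among the lower genes, and 0 members were among the higher ones. For 3 members, H2-T23, H2-D1 and Tapbp, every 3A library was below every Control library, as for 17.6% of all genes. The median log2 fold change was -0.40 over the members and -0.02 over all genes. The same comparison chose the members, so these counts describe them and test nothing. Without Control 1, 6 members were among the lower genes (H2-T23, H2-D1, B2m, Psmb8, Psmb9 and Psmb10), which then were 25.8% of all genes.

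Class I heavy chains other than the 3 members were lower in 3A where they passed the test. Of 21 listed genes, 18 were found and 11 tested, and 6 were lower and 0 higher (54.5% lower, against 7.39% of all genes), with a median log2 fold change of -0.89. H2-Q6, a Qa-2 gene, had 96.7, 111 and 113 CPM in 3A and 235, 247 and 243 CPM in Control (edgeR quasi-likelihood test, log2 fold change -1.18, SE 0.14, adjusted p = 0.00254). H2-T22, which encodes a ligand of γδ T cells, had 384, 356 and 366 CPM in 3A and 505, 638 and 602 CPM in Control (edgeR, log2 fold change -0.66, SE 0.15, adjusted p = 0.0309). In both genes the groups did not overlap, and the gap was far smaller than that of H2-T23. H2-T10 (log2 fold change -0.92), H2-Q5 (-0.89) and H2-K2 (-1.52), which the annotation classes as pseudogenes, passed too, as did H2-Bl at 2 to 3 reads a library in 3A and 8 to 16 in Control. H2-Q7 (0.03), H2-M3 (0.55), whose product presents formylated bacterial peptides, H2-Q4 (-0.69), H2-T24 (-0.12) and H2-Q1 (-1.60) did not pass. Without Control 1, 8 of the list were lower and 1 (H2-M3) was higher, when 25.8% of all genes were lower and 3751 of 14300 higher. Without any 1 of the other 5 libraries between 1 and 4 were lower and 0 higher, when between 2.26% and 4.64% of all genes were lower. H2-Q6 passed with each library left out in turn.

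**Figure D3:**
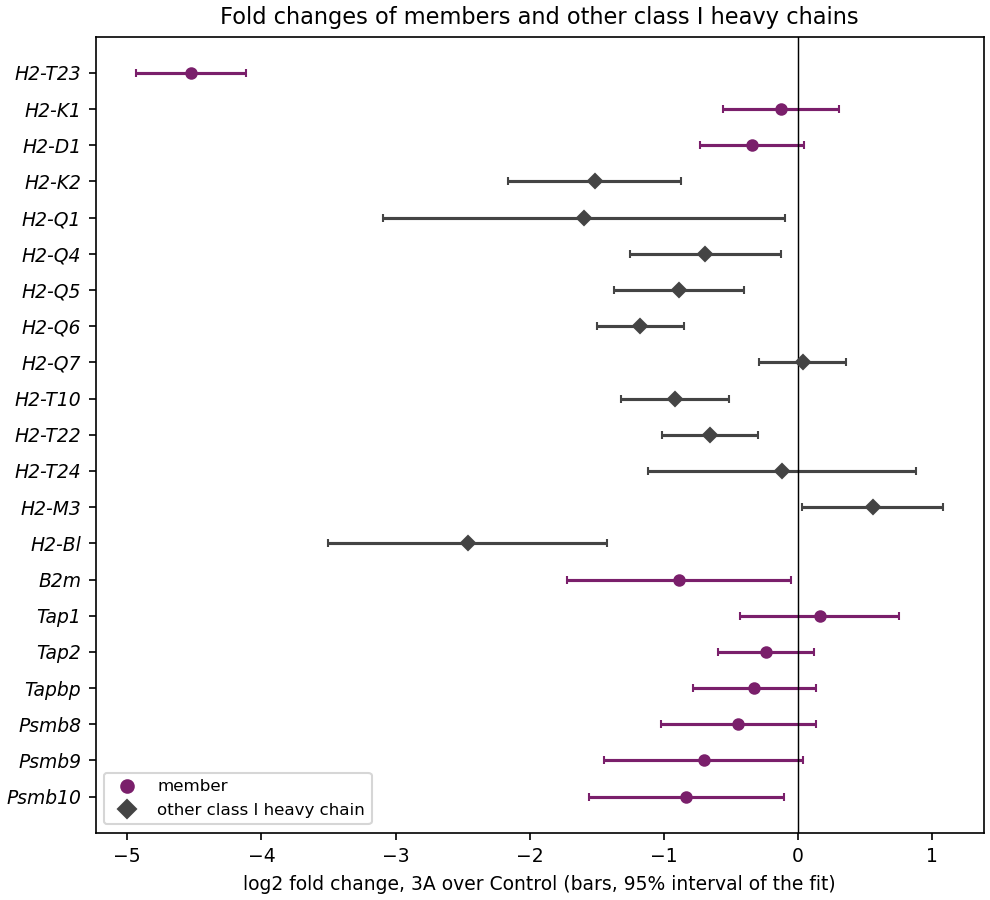
Log2 fold change of 3A over Control for the 10 members (circles) and 11 other class I heavy-chain genes (diamonds), with bars for the 95% interval of the fit. H2-T23 lies at -4.52, and the others lie between -2.46 (H2-Bl) and 0.55 (H2-M3).

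Class I genes resemble each other in sequence, and the sources used here do not name the class I alleles of the line. Of the 50-base words in the principal transcript of H2-T23, 29.8% occur in transcripts of other genes, and 12.9% in H2-T-ps, the gene that shares the most. The share was 8.79% for H2-K1, 14.3% for H2-D1, 35.0% for H2-Q6, 40.2% for H2-Q7, 44.7% for H2-T22 and 43.0% for H2-T10, and 0.576% for H2-M3. Their counts are thus uncertain where reads fit several copies, because the sources used here do not say how such reads were divided. The antisense gene A930015D03Rik spans H2-T23 and averaged 0.312 CPM in 3A and 0.201 CPM in Control.

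Around H2-T23 the genes did not share its fold change. Within 500 kb, 89 other genes are annotated and 31 were tested, with a median log2 fold change of -0.08. Of these 31, 5 were lower in 3A and 3 higher, against 7.39% of all genes lower and 7.52% higher. The nearest, H2-T22, has its midpoint 8.6 kb away and had a log2 fold change of -0.66, and H2-T24, 18.2 kb away on the other side, had -0.12. Gnl1, the nearest tested gene outside the class I family, had -0.16. The 5 lower genes were H2-T22, H2-Bl, H2-T-ps (-2.0), H2-T10 and Cdsn (-0.75), 4 of them class I sequences on the same side of H2-T23. Of these, H2-T-ps averaged 0.501 CPM in 3A and 2.01 CPM in Control, and H2-Bl 0.0736 and 0.422 CPM. H2-T-ps shares words with H2-T23, and 40.15% of the words of H2-T10 occur in H2-T22, so these counts may not be independent. The 3 higher genes were Tubb5 (0.78), Ier3 (0.63) and the predicted gene Gm19684 (1.32).

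**Figure D4:**
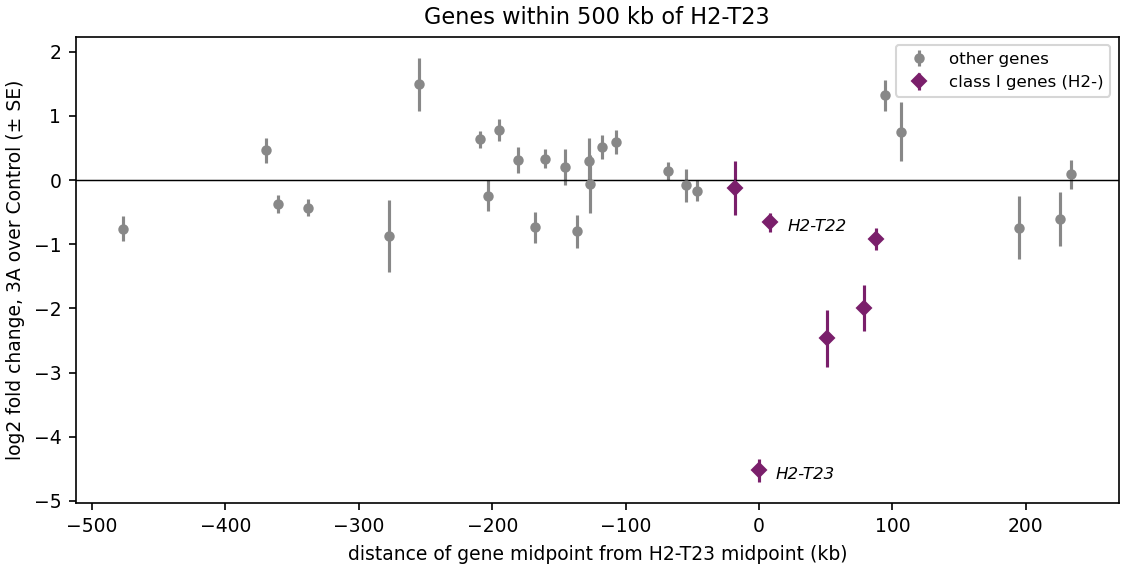
Log2 fold change of 3A over Control (bars, SE) for the genes tested within 500 kb of H2-T23, against the distance between gene midpoints in kb. H2-T23 lies at -4.52, its neighbour H2-T22 at -0.66, and the tested genes to its left lie between -0.88 and 1.49.

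The genes whose log2 CPM over the 6 libraries was most like that of H2-T23 were Cdkn1c, Pdcd4, Ifi213, Mreg and Gbp5. Pearson's r with H2-T23 was between 0.998 and 0.999 for these 5, among 9662 genes averaging at least 5 CPM, of which 41 exceeded 0.99. The libraries fall into 2 groups, so r mostly records a large gap between groups with little spread inside them, and it is given with no test. Cdkn1c, a cyclin-dependent kinase inhibitor gene, had 0 counts in all 3A libraries and 7.89, 14.9 and 14.5 CPM in Control. Pdcd4 had 7.62, 7.73 and 8.24 CPM in 3A and 26.8, 29.5 and 31.0 CPM in Control. Mreg had 10.3, 10.3 and 11.3 CPM in 3A and 28.0, 32.9 and 31.5 CPM in Control. Ifi213, an interferon-inducible gene, had 1.83, 1.60 and 1.87 CPM in 3A and 13.3, 16.5 and 16.8 CPM in Control. Gbp5, an interferon-inducible guanylate-binding protein gene, had 6.88, 6.53 and 7.85 CPM in 3A and 29.96, 34.5 and 35.5 CPM in Control.

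Transcription factors and cofactors linked to class I genes were measured as a list of 15. Of these, 1 was higher and 2 were lower in 3A (13.3% lower), near the shares of all genes, 7.52% higher and 7.39% lower. Nlrc5, the class I transactivator, had 72.6, 71.7 and 67.6 CPM in 3A and 95.7, 86.5 and 92.4 CPM in Control. Its groups did not overlap, but it missed the threshold (edgeR quasi-likelihood test, log2 fold change -0.37, SE 0.13, adjusted p = 0.0950). Rfx5, the DNA-binding subunit of the RFX complex with which Nlrc5 acts, had 21.9, 20.6 and 19.6 CPM in 3A and 39.7, 39.1 and 35.4 CPM in Control, and was lower (edgeR, log2 fold change -0.88, SE 0.14, adjusted p = 0.00754). Irf2, an interferon regulatory factor gene, was lower too (edgeR, log2 fold change -0.96, SE 0.23, adjusted p = 0.0329). Ciita, the class II transactivator gene, was higher at a low level, with 4.30 ± 0.54 CPM in 3A and 1.92 ± 0.41 CPM in Control (SD, n = 3 each; edgeR, log2 fold change 1.16, adjusted p = 0.0243). Irf1, an interferon-induced activator of class I promoters, had a log2 fold change of -0.20 and did not pass. Without Control 1, 2 of the list were higher and 4 lower, when 3751 of 14300 genes were higher and 25.8% lower. Without any 1 of the other libraries 0 were higher and between 0 and 2 lower, when between 2.26% and 4.64% of all genes were lower.

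Of 11 interferon receptor and signalling genes 3 were lower (27.3%, against 7.39% of all genes) and 0 higher (against 7.52%). Ifngr1, a chain of the interferon-γ receptor, had 20.7, 21.6 and 23.4 CPM in 3A and 35.5, 46.7 and 42.5 CPM in Control (edgeR quasi-likelihood test, log2 fold change -0.92, SE 0.16, adjusted p = 0.0108). Stat2 had a log2 fold change of -0.53 (edgeR, adjusted p = 0.0365) and Ifnar2, a chain of the type I receptor, -0.78 (edgeR, adjusted p = 0.0449). The groups did not overlap for these 3. Without Control 1, 4 of the list were lower, when 25.8% of all genes were. Without any 1 of the other libraries at most 1 was, when between 2.26% and 4.64% of all genes were lower.

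Calls were few in the rest of the machinery, as they were over all genes (7.39% lower and 7.52% higher). Of 12 loading chaperones and trimming peptidases, 1 was lower in 3A (8.33%) and 0 higher. The lower gene was Calr, the calreticulin gene, with 773, 795 and 681 CPM in 3A and 960, 1767 and 1799 CPM in Control (edgeR quasi-likelihood test, log2 fold change -1.01, SE 0.26, adjusted p = 0.0434). It passed by a small margin, and Control 1 was again the low library of its group. Canx (0.51), Pdia3 (-0.07) and Erap1 (0.35), which act in folding, loading and trimming, did not pass. The 11 structural subunits of the 20S core and the 8 activator and assembly genes had 0 calls, with log2 fold changes between -0.82 and 0.76 for the core and between -0.70 and 0.36 for the activators. Psme1, an activator subunit induced by interferon-γ, had 295, 203 and 221 CPM in 3A and 212, 458 and 495 CPM in Control, with Control 1 again among the 3A libraries. Without Control 1, the calls were 3 higher and 3 lower for loading and trimming and 1 higher and 3 lower for the core. For the activators they were 1 higher and 5 lower. Over all genes 25.8% were then lower and 3751 of 14300 higher. Without any 1 of the other libraries each list had 0 calls, when between 2.26% and 4.64% of all genes were lower.

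Of 10 class II genes, which serve presentation to CD4+ T cells, 6 were tested, with log2 fold changes between -0.79 and 0.43. Of the 6, 0 passed, against 14.9% of all genes in either direction. Without Control 1, 2 were lower, when 25.8% of all genes were. Of 3 tested class I-like genes outside the MHC, 1 passed and was higher in 3A, against 7.52% of all genes higher. Azgp1, a secreted zinc-binding glycoprotein gene, was low throughout, at 1.15 ± 0.27 CPM in 3A and 0.132 ± 0.056 CPM in Control (SD, n = 3 each; edgeR quasi-likelihood test, log2 fold change 3.10, adjusted p = 0.00525). Ligands that natural killer and T cells read beside class I differed in both directions, with 1 of 6 tested genes higher and 2 lower (33.3% lower), against 7.52% of all genes higher and 7.39% lower. H60c, a ligand of the activating receptor NKG2D, had 3.35, 7.91 and 7.63 CPM in 3A and 44.6, 31.2 and 29.9 CPM in Control (edgeR, log2 fold change -2.48, SE 0.35, adjusted p = 0.00540). Raet1e, another NKG2D ligand gene, had 2.07 ± 0.33 CPM in 3A and 8.87 ± 1.54 CPM in Control (SD, n = 3 each; edgeR, log2 fold change -2.10, adjusted p = 0.00207), and its exons overlap those of H60b and Raet1d. Pvr, a ligand of DNAM-1 and TIGIT, was higher (edgeR, log2 fold change 0.88, adjusted p = 0.0362). Cd274, the PD-L1 gene, had a log2 fold change of -0.67 and did not pass (edgeR, adjusted p = 0.0700). Without Control 1, 1 was higher and 3 lower, when 3751 of 14300 genes were higher and 25.8% lower. Without any 1 of the other libraries 0 or 1 was higher and 2 lower, when between 2.26% and 4.64% of all genes were lower.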

How the data were processed

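The authors deposited raw counts of reads per gene, whole and unscaled, for 6 libraries. Trim Galore, featureCounts, edgeR and limma are named in the submitters' processing notes, with the builds mm10, GRCh38 and hg38. For the aligner, annotation release, strand setting and treatment of multi-mapping reads, nothing is given in the sources used here.

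GENCODE M21, on the mm10 assembly (GRCm38), gave symbols, positions and transcript lengths. It matched 49056 IDs and not 259. Positions are 1-based. The test was that of edgeR 4.0.16 (R 4.3.3, filterByExpr, TMM scaling, glmQLFit and glmQLFTest, group as the only term), with Benjamini-Hochberg adjustment over 13704 genes and a threshold of 0.05. CPM used TMM-scaled library sizes. Correlations were taken on log2 CPM with a prior count of 1. SEs were computed from the fit as the absolute log2 fold change divided by the square root of the F statistic. The 95% intervals were built from these SEs. The common biological coefficient of variation was 0.264. Chi-square per degree of freedom between libraries of a group ranged from 14.5 to 291, so no library was a duplicate.

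The members and gene lists were chosen with earlier results of these data known. The text names the members, Itga3, up to 4 called genes per list with the smallest p, list genes not called, the counterparts of the immunoproteasome genes and the 5 genes most like H2-T23. H2-Q5, H2-T22 and the genes near H2-T23 were also named after their values were seen. Alternatives were scaling by relative log expression, library size or upper quartile, other low-count filters, DESeq2 1.42.0, limma-voom 3.58.1, the replicate number as a block, the mitochondrial share as a covariate, an adjusted p under 0.01 and each library left out. On simulated counts for 3A against Control (13491 genes), 17% of 2-fold and 93% of 4-fold changes were recovered, and 3 of 113 calls were false. Far fewer genes were changed in the simulation than passed in the data, so these rates may not carry over. Promoter sequences came from RefSeq (GRCm38.p6). The result for 1 gene of the lists is not reported here.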

Additional observations from a re-analysis of the deposited data

How the results depend on the processing

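The log2 fold change of H2-T23 lay between -4.59 and -4.40 over 15 alternatives, and that of B2m between -1.20 and 0.02. For H2-T23 the log2 fold change minus the mean of those of H2-K1 and H2-D1 was -4.29, between -4.37 and -4.24 with 1 library left out, and -4.14 with the mitochondrial share as a covariate. The fit with that covariate compares 3A mainly with Control 1. Over all genes, 1031 were higher and 1013 lower in 3A. DESeq2 gave 1678 and 1887, and an adjusted p under 0.01 gave 364 and 352. With 1 library left out, between 346 and 3751 were higher and between 318 and 3690 lower. The highest counts came without Control 1, and those without any other library were at most 640 and 654. The cause was not tested.

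With the replicate number as a block, 142 genes were higher and 146 lower. The numbers did not pair the samples, since the deviations of same-numbered libraries correlated at -0.66, -0.42 and -0.37, and no library correlated best with its own number. Depth was between 25634204 and 36245240 counts, so the lowest member value rests on 499 reads. Each group is 1 line.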
